A study of Mus musculus with 7 samples.

Results

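The block of mouse chromosome 14 described here holds the adjacent genes Ctsb, Fdft1, Neil2 and Gata4, with 50 kb added on each side, and spans chr14:63072462-63321692 of GRCm38 (mm10), 249231 bp in all. Within it, binding sites of estrogen receptor beta (ERβ) were chosen by measured values. The mean signal of each ERβ ChIP library in 200-bp windows was divided by the mean of both inputs, with the genome mean of the inputs as the lowest divisor, and windows over 4-fold in at least 2 ChIP libraries were joined into sites where they overlapped. By this rule the block held 4 of 4869 sites on the autosomes and chromosome X. The block and its sites were thus selected on the contrast of ChIP with input, so the folds below describe the members and no test of them is reported. In non-overlapping 200-bp windows across the genome, 0.0455% passed the rule.

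The study mapped ERβ binding by ChIP-seq, in which cross-linked, sheared chromatin is recovered with an antibody and sequenced. Whole ovaries of wild-type C57BL/6J mice were used, with the ERβ antibody PPZ0506. The files analysed were 3 ChIP replicates and 2 inputs, which are sheared chromatin sequenced without the antibody step. Each ChIP replicate was a pool of ovaries from several mice, weeks to a few months old and not staged by estrous cycle, so signal was averaged over cell types and cycle stages, and fewer bound cells cannot be told apart from less binding per cell. The 2 ChIP samples from ERβ knockout ovaries were not analysed here. ChIP signal gives no expression level, so the labelled tissue was not checked against marker genes.

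ERβ, encoded by Esr2, is a ligand-activated nuclear receptor of the granulosa cells that surround the oocyte. It binds DNA as a dimer at the estrogen response element (ERE), a pair of inverted half-sites, and can regulate genes near or far from the bound position. Gata4 encodes a zinc-finger transcription factor needed for gonad formation and granulosa cell function. Fdft1 encodes squalene synthase, the enzyme that commits farnesyl diphosphate to sterol synthesis, and sterols are the precursors of ovarian steroids. Neil2 encodes a DNA glycosylase of base excision repair, and Ctsb encodes cathepsin B, a lysosomal cysteine protease.

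In the annotation (GENCODE), Ctsb lies on the plus strand at chr14:63122462-63145923. The other members lie on the minus strand, Fdft1 at chr14:63145150-63179578, Neil2 at chr14:63182443-63193856 and Gata4 at chr14:63198922-63271692. The bodies of Ctsb and Fdft1 overlap by 774 bp at their 3′ ends. The block also holds the pseudogene Gm17941, the small nuclear RNA gene Gm23629 and the start of the long noncoding RNA gene Gm49390. Of the 4 sites, 1 was inside Fdft1 and 3 were near Gata4, whereas Neil2 and Ctsb held none in their gene bodies.

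**Figure D1:**
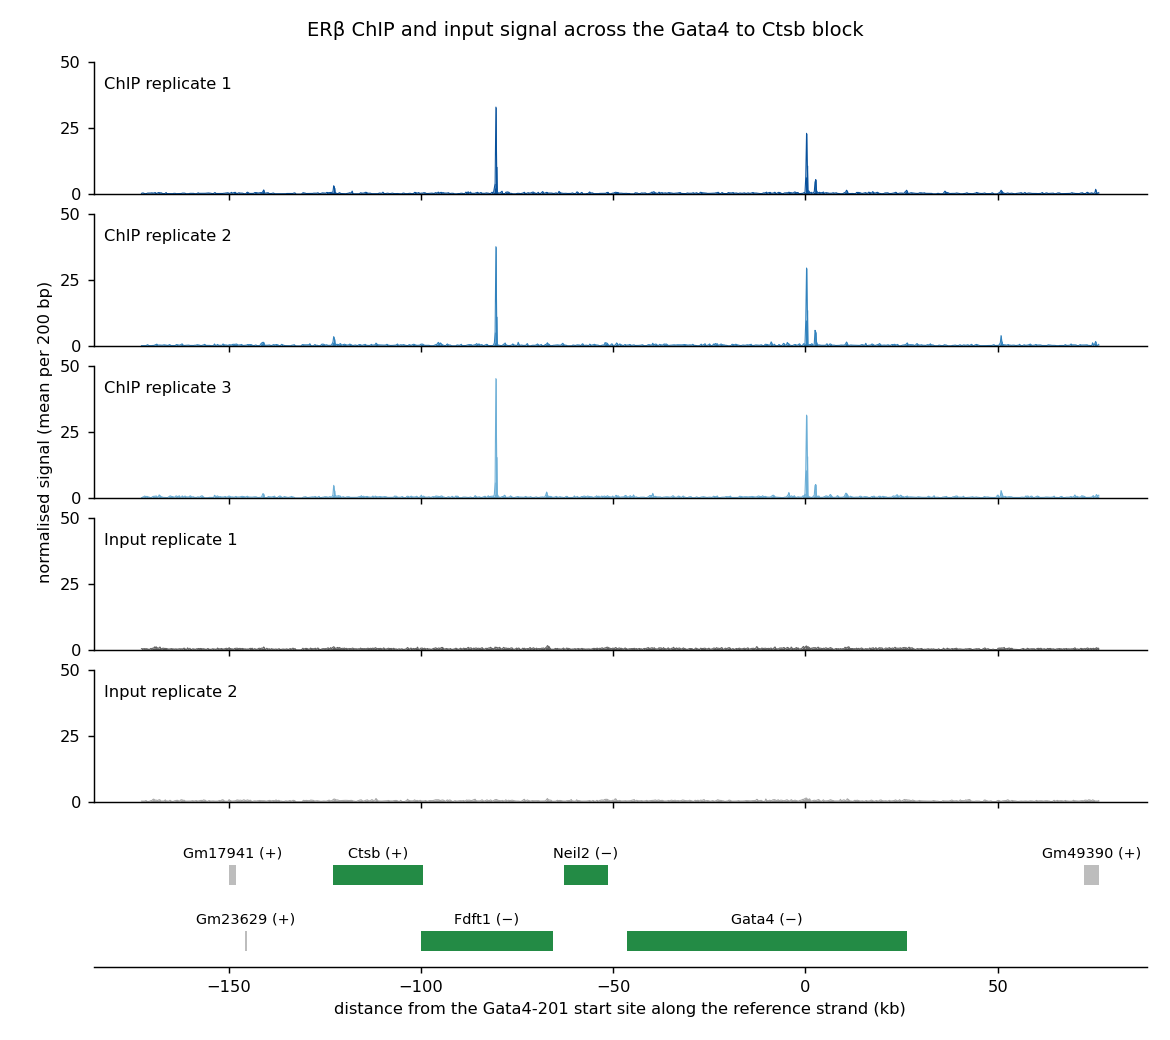
Normalised signal of the 3 ChIP replicates and 2 inputs in 200-bp steps across the block (vertical axes from 0 to 50), against the distance in kb from the Gata4-201 start site, with gene bodies and strands below (green, protein-coding; grey, other). The highest peak in each ChIP replicate is inside Fdft1, the next is at the Gata4 start site, and neither is seen in the inputs.

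The sequences of 3 site windows are shown because the ERE differs among them. They are reference sequence (RefSeq, GRCm38), plus strand, 5′ to 3′. Capitals mark the best match to the ERE GGTCANNNTGACC where it had at most 2 mismatches in the 10 fixed bases.
Fdft1 intron site, chr14:63164671-63164870: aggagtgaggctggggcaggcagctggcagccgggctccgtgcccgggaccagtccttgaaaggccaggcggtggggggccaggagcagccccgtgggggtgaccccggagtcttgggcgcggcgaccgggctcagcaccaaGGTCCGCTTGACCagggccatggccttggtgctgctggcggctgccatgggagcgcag
Gata4 promoter site, chr14:63245561-63245760: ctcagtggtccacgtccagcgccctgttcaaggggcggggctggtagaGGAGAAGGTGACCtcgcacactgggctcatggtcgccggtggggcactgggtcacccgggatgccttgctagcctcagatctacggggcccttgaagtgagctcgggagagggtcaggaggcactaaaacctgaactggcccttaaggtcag
Gata4 distal site, chr14:63296131-63296330: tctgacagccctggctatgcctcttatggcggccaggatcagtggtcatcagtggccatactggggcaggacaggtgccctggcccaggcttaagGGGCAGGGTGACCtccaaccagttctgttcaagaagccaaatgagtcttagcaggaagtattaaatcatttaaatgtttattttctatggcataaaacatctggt

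Each of the 3 windows held an ERE. Positions in the ERE are counted from 1 at the first base of the plus strand, and each token gives the consensus base, the position and the base of the site. The Fdft1 intron site (chr14:63164813-63164825) had 1 mismatch, A5C, and therefore an intact second half-site. The Gata4 distal site (chr14:63296226-63296238) also had 1 mismatch, T3G. The Gata4 promoter site (chr14:63245609-63245621) had 2 mismatches, T3A and C4G, both in the first half-site. For comparison, 67.9% of the 4869 sites and 6.68% of 12796535 consecutive 200-bp genome windows held an ERE with at most 2 mismatches. With at most 1 mismatch the shares were 32.96% and 0.529%.

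The single half-site GGTCA was read on both strands, and it forms part of the ERE and of the NR5A motif. It occurred 2 times in the Fdft1 intron site, 4 times in the Gata4 promoter site and 2 times in the Gata4 distal site. In all, 84.8% of the sites and 26.5% of the genome windows held at least 1. The NR5A motif CAAGGTCA, which binds SF-1 and LRH-1, was in 0 of the 3 windows, against 11.6% of all sites and 1.09% of genome windows. The GATA motif, spelled AGATAA with its variant that begins with the base T, as TGATAA, was in 0 of the 3, against 29.7% of all sites and 24.1% of genome windows. For the AP-1 motif TGACTCA the shares were 6.63% and 3.11%, with 0 of the 3. For the FOXO motif TGTTTAC they were 4.76% and 2.98%, again with 0 of the 3. Base composition differed among them. The GC content was 73% in the Fdft1 intron site, with 13 CpG, and 63% in the Gata4 promoter site, with 9 CpG. It was 49% in the Gata4 distal site, which held 1 CpG.

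The Fdft1 intron site had the highest signal of the block. Over its 200 bp, ChIP replicates 1, 2 and 3 had a signal of 33.6, 38.2 and 46.1, against 0.789 for Input replicate 1 and 0.874 for Input replicate 2. Every ChIP value was far above both inputs, and the inputs were close to each other. The folds over input were 40.4, 46.0 and 55.4, with a mean of 47.3 ± 7.58 (SD, n = 3). This was rank 5 of 4869 sites by mean log2 fold and rank 1 of 214 sites on chromosome 14. It was rank 4 among the 3422 sites over 10 kb from a protein-coding transcription start site (TSS).

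The Fdft1 intron site was 13.02 kb downstream of the nearest protein-coding Fdft1 TSS. Its centre was in intron 1 of 7 of Fdft1-201 and in intron 3 of 9 of Fdft1-204. It was also in exon 1 of Fdft1-203, an annotated retained-intron transcript whose start was 217 bp upstream of the ERE midpoint. The peak was narrow, 215, 226 and 227 bp wide at 50% of its height. The segment of highest signal was 16 to 21 bp long, and the ERE midpoint was 27, 22 and 26.5 bp from its centre in ChIP replicates 1, 2 and 3. Mean ChIP signal fell from 44.5 in the central 100 bp to 2.66 at 250 bp and to 0.730 at 500 bp, where the inputs averaged 0.573.

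The start sites of the protein-coding Fdft1 transcripts, Fdft1-201 and Fdft1-204, had no such peak. In the strongest 200-bp window within 1 kb of the Fdft1-201 TSS, the ChIP replicates had 0.570, 0.610 and 0.908 and the inputs 0.548 and 0.430, a fold of 1.42 ± 0.377 (SD, n = 3). At the Fdft1-204 TSS the fold was 1.2998 ± 0.442 (SD, n = 3). In ChIP replicates 1 and 2 the signal at both start sites was within 0.2 of Input replicate 1.

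Near Gata4, the strongest site was at the promoter. ChIP replicates 1, 2 and 3 had a signal of 21.1, 26.8 and 29.1 at the Gata4 promoter site, and the inputs had 1.08 and 1.18. All ChIP values were above both inputs, and ChIP replicate 1 was again the lowest. The folds were 18.7, 23.7 and 25.7, with a mean of 22.7 ± 3.62 (SD, n = 3), rank 162 of 4869 and rank 7 of the 379 sites within 1 kb of a protein-coding TSS. Its centre was 0.390 kb upstream of the Gata4-201 TSS at position 63245271, and the ERE midpoint was 344 bp upstream of it. The same bases lie in intron 1 of 3 other Gata4 transcripts, each annotated with 2 exons. These start farther upstream, at positions 63271692 and 63271124. The peak was wider than that of Fdft1, 308, 319 and 322 bp at 50% of its height, and the ERE midpoint was 25.5, 4 and 30 bp from the centre of its highest segment.

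The Gata4 upstream site was farther upstream of the same TSS than the promoter site. ChIP signal was 6.65, 7.76 and 6.99, against input signal of 0.960 and 0.590. The 3 ChIP replicates were close together here, and the folds were 8.58, 10.01 and 9.02, with a mean of 9.21 ± 0.733 (SD, n = 3) and rank 1180.

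The Gata4 distal site was intergenic, 24.5 kb upstream of the farthest Gata4 TSS and 50.6 kb from the promoter site. ChIP signal was 1.47, 4.16 and 3.30 there, and that of Input replicates 1 and 2 was 0.851 and 0.310. ChIP replicate 1 was low and did not pass the rule, with folds of 2.54, 7.17 and 5.68, a mean of 5.13 ± 2.37 (SD, n = 3) and rank 3558. Input replicate 1 was 2.75 times Input replicate 2. A ratio at least as high in that direction was reached at 0.842% of all sites, and the opposite direction was not counted. Over Input replicate 1 alone the Gata4 distal site was no longer called and 3 sites remained in the block. It was also lost without ChIP replicate 2 or without ChIP replicate 3. With 2 ChIP replicates left both had to pass, so that loss followed from the low fold of ChIP replicate 1.

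**Figure D2:**
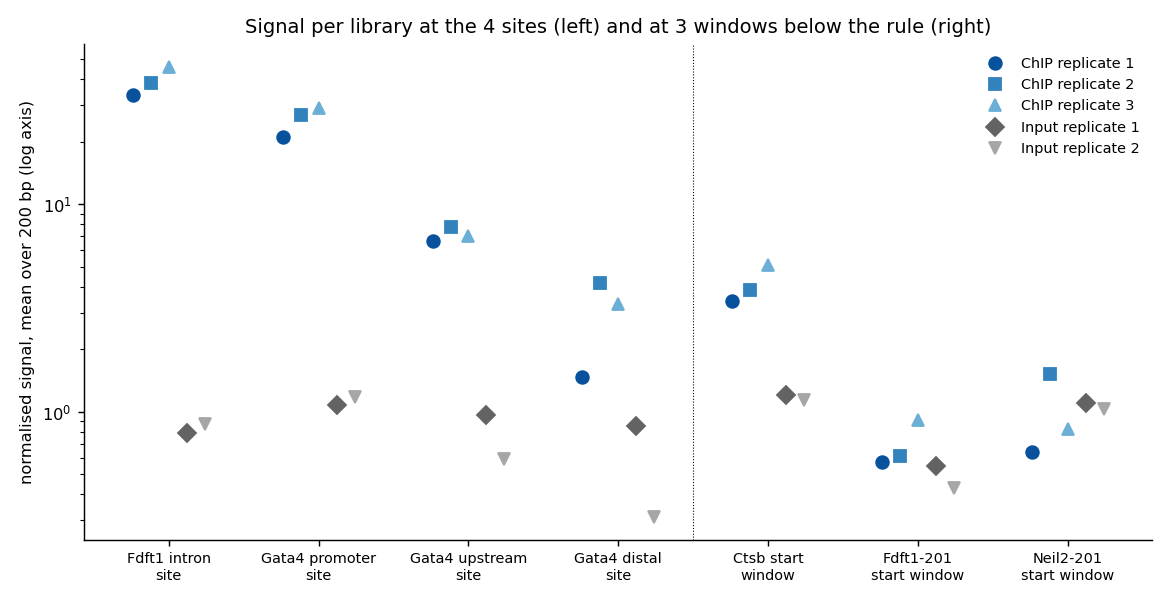
Normalised signal in 200 bp (log axis) of each library, 1 point per library, at the 4 sites (left of the dotted line) and at the windows of highest fold near the starts of Ctsb, Fdft1-201 and Neil2-201 (right). ChIP points lie above both input points at each of the 4 sites and at the Ctsb and Fdft1-201 starts, but not at the Neil2 start, where they run from 0.640 to 1.52 against 1.097 and 1.025.

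Near the Neil2 start, ChIP and input values overlapped. In the strongest window within 1 kb of the Neil2-201 TSS ChIP signal was 0.640, 1.52 and 0.821 and input signal 1.097 and 1.025, a fold of 0.938 ± 0.441 (SD, n = 3). ChIP replicate 2 was above both inputs and the others were below. The site nearest to a Neil2 TSS was the Fdft1 intron site, at a distance of 28.8 kb.

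The Ctsb start held the window of highest mean fold in the block among those that did not pass the rule. At chr14:63122511-63122710, in intron 1 of Ctsb-201, the ChIP replicates had a signal of 3.40, 3.84 and 5.07 and the inputs one of 1.20 and 1.14. All ChIP values were above both inputs, but with folds of 2.90, 3.28 and 4.33 only ChIP replicate 3 passed. Its best ERE match had 2 mismatches, C4G and A11C. The other window near the rule, chr14:63320671-63320870 in Gm49390, had folds of 3.601, 3.397 and 1.480, and 81.5% of its bases were marked as repeats in the reference. Both were called at 3-fold, which gave 6 sites. A window overlapping that of Gm49390 was also called without Input replicate 1 and in windows of 100 bp, which gave 5 sites each. A window 339 bp past the edge of the block, chr14:63322031-63322230, also in Gm49390, had folds of 7.97, 9.37 and 5.91 and did not count as a member. It held the NR5A letters on the minus strand (TGACCTTG), overlapping an ERE with 2 mismatches, and AGATAA.

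**Figure D3:**
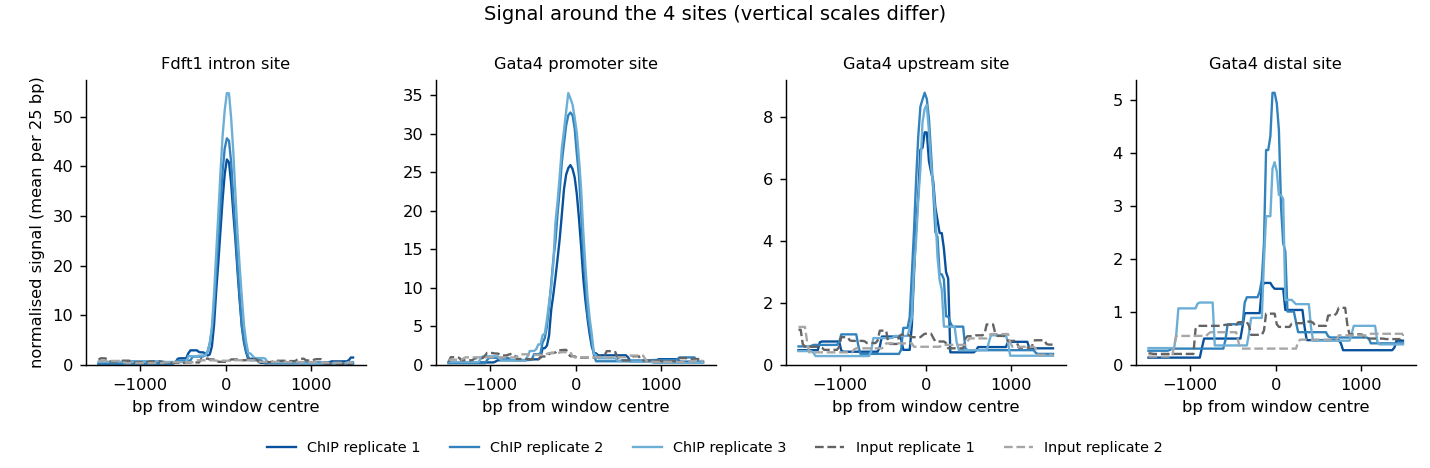
Normalised signal in 25-bp steps within 1500 bp of the window centre at each of the 4 sites (solid, ChIP replicates; dashed, inputs), with a separate vertical scale for each site. At 500 bp, averaged over both sides, mean ChIP signal is 0.532 to 1.01 and mean input signal 0.573 to 1.03, and ChIP replicate 1 has almost no peak at the Gata4 distal site.

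In order of fold the sites were the Fdft1 intron site, the Gata4 promoter site, the Gata4 upstream site and the Gata4 distal site. Over the mean of both inputs, the folds of the 3 ChIP replicates did not overlap between neighbours in this order. The log2 fold of the Fdft1 intron site exceeded that of the Gata4 promoter site by 1.11, 0.96 and 1.11 in ChIP replicates 1, 2 and 3, a mean difference of 1.06 ± 0.09 (SD, n = 3), or 2.08-fold. When ChIP signal was set over the genome mean of its own library and not divided by input, the difference was 0.62. The inputs averaged 0.831 at the Fdft1 intron site and 1.13 at the Gata4 promoter site.

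ChIP replicate 1 gave the lowest fold at each of the 4 sites, and it was the lowest at 61.9% of all sites. The coefficient of variation of the fold over the 3 replicates was 16.0% at the Fdft1 intron site and 15.9% at the Gata4 promoter site. It was 7.96% at the Gata4 upstream site and 46.1% at the Gata4 distal site, against a median of 21.8% over all sites. The 4 windows made up 0.321% of the block and held 10.2%, 11.1% and 11.3% of its signal in the ChIP replicates, against 0.519% and 0.447% in the inputs. Outside the site regions the mean signal of the block was 0.417, 0.461 and 0.4995 in the ChIP replicates, below the 0.565 and 0.527 of the inputs.

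The block was compared with the rest of the genome by cutting the chromosomes into 10558 pieces of its length. Of these, 72.1% held no site and 1.86% held 4 or more, with a maximum of 10. Since the block was chosen for its sites, this is a description only. The median fold of all sites was 6.22, with quartiles of 4.74 and 9.19. The Gata4 distal site was therefore below the median of all sites, the Gata4 upstream site was just above the upper quartile and the other two were in the upper tail.

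**Figure D4:**
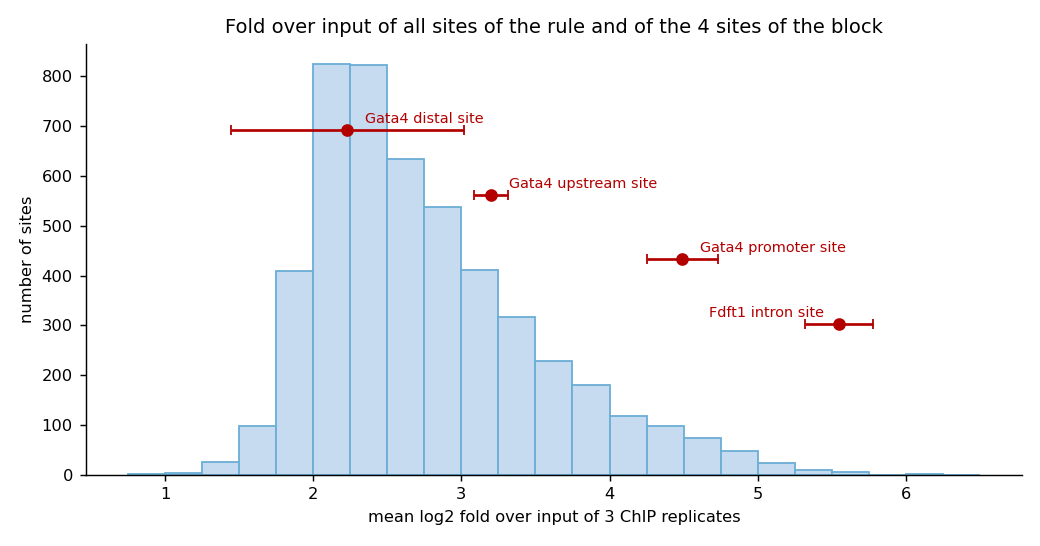
Histogram of the mean log2 fold over input of all 4869 sites (bars 0.25 wide), with the 4 sites of the block as red points placed at arbitrary heights and bars of ± SD over 3 ChIP replicates. The points lie at 2.23, 3.20, 4.49 and 5.55, where the bars hold 824, 412, 98 and 5 sites.

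The sites most like the strongest 2 in fold were elsewhere in the genome. Next above the Fdft1 intron site were sites nearest to Lyrm9, Rybp and Sema7a, with mean folds of 47.7, 51.3 and 52.4, and next below were sites nearest to Rara, Mark1 and Gramd1b, with 46.7, 44.9 and 42.9. The SD over replicates at these sites was 2.94 to 7.85. The same ChIP replicates gave the folds of every site, so this SD does not measure differences between sites. The order of neighbours in rank was not tested. Around the Gata4 promoter site the neighbours were nearest to Tax1bp1, Mtcl1 and Rbck1 above and Sox18, Csrnp3 and Derl1 below, with mean folds from 22.6 to 22.8. Among all sites the median fold was 7.45 where the ERE had 0 mismatches, 6.81 with 1, 6.23 with 2, 5.67 with 3 and 5.10 with 4. The Fdft1 intron site and the Gata4 distal site had the same number of mismatches and a mean fold of 47.3 and 5.13.

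To set the members beside their families, the promoters of all protein-coding genes (1000 bp upstream to 100 bp downstream of each TSS) were compared between ChIP and input. Of 52988 promoters tested with limma, 0.0472% (25) were called higher in ChIP and 0.0189% (10) lower at an adjusted p under 0.05. These counts were unstable. Without ChIP replicate 2 they were 1 and 0, and without ChIP replicate 3 they were 506 and 8543. They also changed with the settings when all libraries were kept, as given below. The median log2 change of all promoters was -0.14, and quantile normalisation moved it to 0.00. The Gata4-201 promoter had 7.94, 10.02 and 11.1 of ChIP signal by replicate and 1.22 and 1.21 of input signal. Its log2 change of 2.56 ± 0.55 (SE) was the highest of all promoters tested, or 2.70 above the median, and its window contains the Gata4 promoter site. That rank depended on the settings. With a pseudocount of 0.1 the highest change at Gata4 was 2.88, below the 2.92 of Gata6. The log2 change was 0.25 ± 0.25 (SE) at the Ctsb-201 promoter, -0.28 ± 0.27 (SE) at Fdft1-201 and -0.28 ± 0.21 (SE) at Neil2-201.

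Among the GATA factors and their FOG cofactors, Gata6, the other GATA factor of granulosa cells, was similar to Gata4. Promoter signal of Gata6 was 5.34, 6.16 and 6.78 with ChIP, compared with 0.779 and 0.654 for input. The log2 change was 2.44 ± 0.51 (SE), with an adjusted p = 0.0156 by limma and higher signal in 3 of 3 ChIP replicates. This call was lost without ChIP replicate 2, without either input and with a pseudocount of 1. It was also lost without the filter on low signal and with promoters of 500 bp on each side. No listed gene, Gata4 included, was called higher in these settings. The strongest site near Gata6, 0.0535 kb from a TSS, had folds of 23.1, 28.1 and 32.3 and rank 80. Across protein-coding genes, 0.0858% had a promoter called higher and 0.0286% one called lower. Gata1, the erythroid factor, had the next highest promoter log2 change of the list, 0.08 ± 0.14 (SE), with an adjusted p = 0.821 by limma.

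Of the other 7 genes of that list, 3 had a site within 50 kb of a TSS (Gata1, Gata6 and Zfpm2), against 22.6% of all protein-coding genes. In the cholesterol synthesis pathway, 7 of the other 18 genes had one. Within 10 kb it was 4 of 18, against 6.95% of all genes. With sites over 8-fold the count fell to 1 of 18, against 9.17% of all genes. The 8-fold site was that of Sc5d, which encodes the lathosterol 5-desaturase. It had folds of 12.6, 18.8 and 13.4 and is named after its values were seen. No promoter of the 18 genes was called by limma in either direction, and at an unadjusted p under 0.05, 1 gene had a promoter that was higher and 4 genes had at least 1 that was lower. Over all protein-coding genes these shares were 2.12% higher and 15% lower. For Dhcr7, which encodes a sterol reductase at the end of the pathway, the highest log2 change of its 7 promoters was 0.34 ± 0.33 (SE), and 5 of the 7 were lower at an unadjusted p under 0.05. For Lss, which encodes lanosterol synthase, the highest was 0.13 ± 0.16 (SE).

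In base excision repair, the pathway of Neil2, 2 of the other 15 genes had a site within 50 kb, against 22.6% of all protein-coding genes. Limma called 0 of their promoters, and at an unadjusted p under 0.05, 0 genes had a promoter that was higher and 6 had at least 1 that was lower, against the same 2.12% and 15% of all genes. The highest log2 changes were 0.01 ± 0.21 (SE) at Tdg, -0.01 ± 0.23 (SE) at Polb and -0.02 ± 0.16 (SE) at Xrcc1. Among the other cathepsins, 1 of 13 had a site within 50 kb, against the same 22.6%. None of the promoters was called by limma. At an unadjusted p under 0.05, 0 cathepsin genes had a promoter that was higher and 2 (Ctsa and Ctsh, named after their values were seen) had at least 1 that was lower, again beside 2.12% and 15% of all genes. The next highest log2 changes after Ctsb were 0.18 ± 0.24 (SE) at Ctsf and 0.18 ± 0.20 (SE) at Ctsz. The median of the highest promoter change per gene was -0.07 over all genes. Without the members it was -0.02 for the GATA list, -0.15 for cholesterol synthesis, -0.15 for base excision repair and -0.06 for cathepsins.

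**Figure D5:**
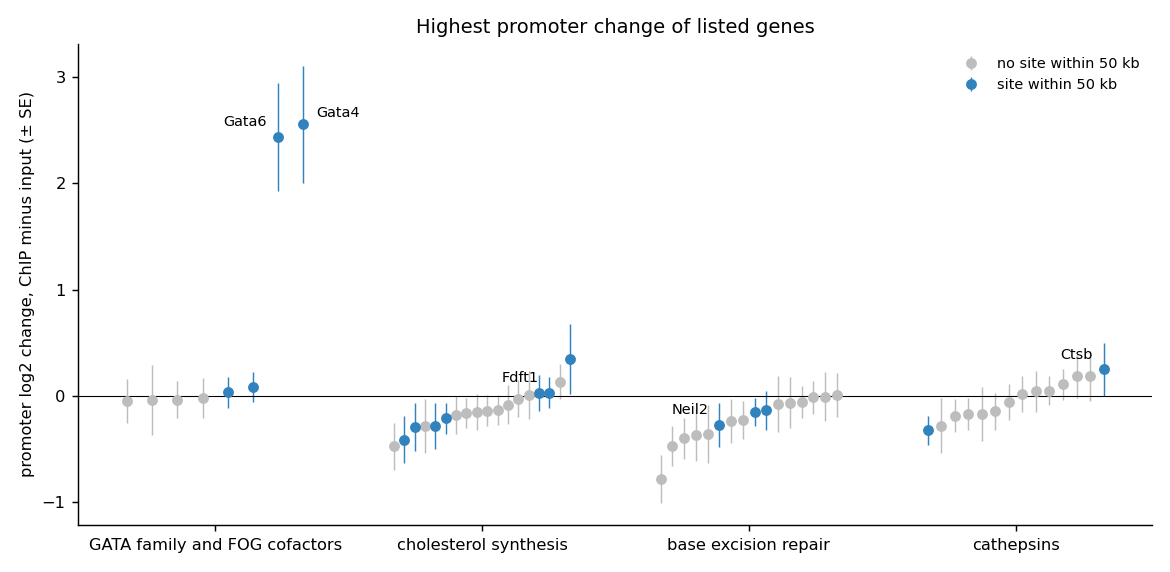
Highest promoter log2 change (ChIP minus input, ± SE) of genes in the 4 lists, 1 point per gene and 1 listed gene not shown, blue where a site was within 50 kb of a TSS and grey where none was. Gata4 and Gata6 stand apart at 2.56 and 2.44, above the other genes shown.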

How the data were processed

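ChIP DNA was sequenced from ovaries in 3 ERβ ChIP replicates, beside 2 inputs, and groups were taken from the sample titles. The submitters' processing notes name STAR, HOMER and mm10. The deposited values are signal (coverage), scaled by the authors to the same total in each library and stored as 1 track per library, without pooling. Signal summed over bases gave 928 to 948 M per library and the genome mean 0.362 to 0.370. Segments of variable length were averaged (median 269 to 519 bp), so read depth is unknown and no counting interval was computed. How duplicates were treated and the length to which reads were extended are not given in the sources used here.

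Exact window means were computed from the tracks in Python (3.11.15), with windows at steps of 10 bp, and sites were represented by the window of highest mean fold. Autosomes and chromosome X were used (99.7% to 99.8% of signal). Sequence was RefSeq GRCm38.p6 and genes were GENCODE M21, the build of the tracks. Promoters with a mean signal of at least 0.1 were tested with limma (3.58.1, trend) on log2(signal + 0.5), with Benjamini-Hochberg adjustment over all promoters, and the script was tested on simulated data. This scale understates changes where signal is low. Replicates are pools of mice, and p-values measure the spread between these libraries.

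The named genes were the members, all genes annotated in the block, listed genes with a promoter called, the 3 of each list with the highest promoter change, and the genes nearest to the 3 sites above and below in rank. One gene and 1 site sequence that the rules select are not reported here. The members, lists and tests were chosen with earlier results of these data known. Alternatives were the floor, window, threshold, inputs, replicates left out, pseudocount, filter, promoter width, scaling and a replicate block.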

Additional observations from a re-analysis of the deposited data

How the results depend on the processing

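Of 109 alternative values, 60 kept their direction and call, or stayed within the spread or within 1.5 times a count. Another 37 moved beyond these limits, and 12 promoter changes lost their call. A reversal could be recorded only for the log2 difference between the Fdft1 and Gata4 promoter sites, and 0 were. The block held 3 to 6 sites under every setting, and 3 to 5 with a library left out. The Fdft1 intron site, the Gata4 promoter site and the Gata4 upstream site were found in each. All 3 ChIP replicates passed the rule at these sites, so leaving out a ChIP replicate could not remove them. The fold of the Fdft1 and Gata4 promoter sites was 57.1 and 26.4 in windows of 100 bp, 29.3 and 16.7 in windows of 400 bp, and 108 and 70.4 when ChIP was set over its own genome mean. With a library left out the folds were 43.2 to 50.7 and 21.2 to 24.7, and their log2 difference was 1.03 to 1.11. Without mismatches 0 sites held an ERE. Of the 53 listed genes other than the members, 13 had a site within 50 kb, 5 had one within 10 kb and 2 had an 8-fold site within 50 kb. Over all protein-coding genes these shares were 22.6%, 6.95% and 9.17%.

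The promoter calls were unstable, and the cause was not tested. Counts higher and lower were 56 and 5 with a pseudocount of 0.1, 4 and 4 with a pseudocount of 1, 1 and 6 without a filter, 3 and 0 with 500 bp on each side, and 436 and 203 with quantile normalisation. With a library left out they ran from 1 to 506 and from 0 to 8543. Listed genes called higher were 0 with a pseudocount of 1, without a filter and with 500 bp on each side, and 0 to 2 with a library left out.

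ChIP and input libraries share the numbers 1 and 2, but nothing in the labels pairs them, and deviations of same-numbered libraries correlated at -0.09 and 0.02 over promoters. With a replicate block, 243 promoters were higher and 3484 lower. No input has the number of ChIP replicate 3, so that replicate added nothing to the estimated change. The highest Gata4 promoter change was 2.46 both with the block and without ChIP replicate 3. With ChIP replicates 1 and 2 each over the same-numbered input (replicate block), chosen after seeing the data, 3 sites remained. Track names of ChIP replicates 2 and 3 and Input replicate 2 share a prefix. With each ChIP replicate over the input of its own track-name group, also chosen after seeing the data, the block held 4 sites, with folds of 46.4 and 22.3 at the Fdft1 and Gata4 promoter sites. By replicate, the folds were then 6.93, 13.15 and 11.85 at the Gata4 upstream site. At the Gata4 distal site they were 1.73, 11.35 and 8.99, so the ranges of these 2 sites overlapped.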
